A study of Mus musculus with 7 samples.

Results

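The 47 genes described here encode proteins that copy DNA or prepare a cell for copying it, and they were measured in natural killer (NK) cells of mouse spleen, from Hhex KO and Cre control samples. They were chosen as a list of gene symbols, matched to the Ensembl identifiers of the count table without their version. Earlier results of these data were known when the list was made, so shares set beside all genes are descriptions. All 47 were found among the 53379 genes of the table, and all 47 were among the 12161 genes that passed the filter on low counts. Hhex is a homeobox transcription factor, and the series title links it to NK cell homeostasis and to apoptosis through BIM. The 7 RNA-seq libraries came from 4 Hhex KO samples and 3 Cre control samples, all of strain C57BL/6. Every sample was a sort of viable splenic cells straight from the mouse, gated as C45+CD3-Nk1.1+NKp46+CD49b+ in the spelling of the labels, and the labels name no treatment. They also name neither the Cre driver nor the Hhex allele, and they give no age. The submitters call the libraries biological replicates and do not say whether each came from its own animal, so the p-values speak only for the spread among these 7 samples.

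Before a cell can copy its DNA, the loading factors Cdc6 and Cdt1 place the ring-shaped MCM2-7 complex on replication origins in G1, and geminin later holds Cdt1 in check. Kinases then turn the ring into a working helicase by adding Cdc45 and the GINS complex. Polymerase alpha with primase starts each new strand, the clamp loader RFC places the PCNA clamp, polymerases delta and epsilon extend the strands, and Fen1 and Lig1 trim and seal the lagging strand. Thymidylate synthase, thymidine kinase, ribonucleotide reductase and dUTPase supply the nucleotides. Many of these genes are known targets of the E2F factors, which the retinoblastoma protein restrains until cyclin-dependent kinases inactivate it late in G1. Most NK cells of a resting adult spleen are not dividing, so RNA of these genes in such a population can come from a minority of cycling cells. In bulk RNA, more cells in S phase and more of these RNAs per cell cannot be told apart.

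To show the control sequence that these genes are known for, promoters of a called gene and of 4 helicase subunit genes are printed from RefSeq on build GRCm38.p6. Each window runs from 250 bases before to 50 bases after an annotated start site. They are written 5′ to 3′ on the strand of the gene, and capitals mark E2F-type matches. Hells (chr19:38930740-38931039, plus strand) is the only called gene with a match, and the MCM genes were chosen after their values were seen. The windows are Mcm3 (chr1:20820263-20820562, minus strand), Mcm5 (chr8:75109259-75109558, plus strand), Mcm6 (chr1:128359656-128359955, minus strand) and Mcm7 (chr5:138171834-138172133, minus strand).
Hells: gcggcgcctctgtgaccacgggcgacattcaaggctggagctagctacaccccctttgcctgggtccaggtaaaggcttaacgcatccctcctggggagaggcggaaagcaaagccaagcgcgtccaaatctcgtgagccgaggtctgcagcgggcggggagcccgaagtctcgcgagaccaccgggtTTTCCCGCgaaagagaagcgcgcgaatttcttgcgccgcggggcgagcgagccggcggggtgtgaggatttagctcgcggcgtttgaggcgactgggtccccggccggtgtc
Mcm3: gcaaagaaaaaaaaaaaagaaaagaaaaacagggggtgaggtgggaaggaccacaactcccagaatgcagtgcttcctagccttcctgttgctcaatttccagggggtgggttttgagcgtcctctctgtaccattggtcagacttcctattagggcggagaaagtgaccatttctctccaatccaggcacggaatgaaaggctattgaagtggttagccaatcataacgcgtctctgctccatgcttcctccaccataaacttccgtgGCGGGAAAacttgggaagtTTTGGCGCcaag
Mcm5: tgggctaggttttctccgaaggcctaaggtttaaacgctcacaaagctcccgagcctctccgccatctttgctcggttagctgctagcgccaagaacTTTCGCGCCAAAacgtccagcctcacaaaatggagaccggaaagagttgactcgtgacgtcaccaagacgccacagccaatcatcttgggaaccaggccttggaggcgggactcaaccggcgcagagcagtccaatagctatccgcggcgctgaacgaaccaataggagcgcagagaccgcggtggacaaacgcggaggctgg
Mcm6: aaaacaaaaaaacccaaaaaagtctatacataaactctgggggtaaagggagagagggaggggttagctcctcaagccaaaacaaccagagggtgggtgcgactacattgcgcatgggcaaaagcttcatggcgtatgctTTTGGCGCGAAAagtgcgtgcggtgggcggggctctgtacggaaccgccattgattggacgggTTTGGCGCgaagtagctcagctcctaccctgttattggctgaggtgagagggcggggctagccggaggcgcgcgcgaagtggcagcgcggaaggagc
Mcm7: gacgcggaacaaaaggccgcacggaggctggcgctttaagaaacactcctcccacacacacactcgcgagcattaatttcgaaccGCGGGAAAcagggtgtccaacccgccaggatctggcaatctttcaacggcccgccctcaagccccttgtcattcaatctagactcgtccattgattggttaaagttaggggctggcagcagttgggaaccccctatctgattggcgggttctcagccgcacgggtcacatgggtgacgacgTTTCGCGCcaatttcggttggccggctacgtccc

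The motif searched was any of TTTCCCGC, TTTGGCGC, TTTCGCGC and TTTGCCGC, on both strands. Overlapping matches run together in capitals, as in Mcm5 and in the upstream pair of Mcm6. RefSeq windows were matched for 38 of the 47 genes, and 14 of these 38 genes (36.8%) held a match, against 2.60% of 27025 genes with windows of the same length. The 5-letter CCAAT box was in 50% of the 38 genes, against 41.1% of all genes, and the letters TTTGAA, the core of the cell cycle homology region, were in 10.5%, against 20.2%. The 14 genes with a match had a median log2 fold change of 0.66 and held 1 called gene, and the 24 with a window and no match had a median of 0.68 and held 4 called genes. The 9 genes without a window had a median of 0.67 and also held 4 called genes. A match is a description of the letters in this window and says nothing of whether a factor binds there.

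Total counts were 10589915 to 18414034 in the Hhex KO libraries and 11482273 to 18456404 in the Cre control libraries, and single-library counts of the 47 genes ran from 6 to 6623. Levels are given as counts-per-million values (CPM) of the TMM-scaled library size, in the order of replicates 1 to 4 for Hhex KO and 1 to 3 for Cre control. Fold changes are log2 values, Hhex KO over Cre control, ± SE, from edgeR's quasi-likelihood test, and a gene was called where its Benjamini-Hochberg adjusted p over all 12161 genes was below 0.05. Hhex itself (ENSMUSG00000024986.11, chromosome 19, 37434810 to 37440731) was at 58.03, 56.5, 54.2 and 64.8 CPM in Hhex KO, against 96.1, 95.6 and 93.5 CPM in Cre control, with a log2 fold change of -0.70 ± 0.10 at an adjusted p of 0.00768. The call was lost without Cre control replicate 1 (0.0516) and without replicate 2 of both groups (0.0971). Hhex was lower in every Hhex KO library and still read there, and gene-level counts cannot tell which exons those reads came from. The 8 NK cell markers, Ncr1, Klrb1c, Klrd1, Itga2, Eomes, Tbx21, Prf1 and Gzma, summed to 10495 to 13898 CPM in Hhex KO and 13358 to 17675 CPM in Cre control, and 0 of the 8 were called. The 4 markers of type 1 innate lymphoid cells (Cxcr6, Itga1, Il7r and Tnfsf10) summed to 410 to 538 CPM in Hhex KO against 73.7 to 96.6 CPM in Cre control, and all 4 were called higher.

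Levels of nearly all replication genes were higher on average in Hhex KO NK cells, by less than 2-fold for most genes and by over 3-fold for a few, and the minority named here as called passed the test. Of the 47 genes, 9 were called higher (19.1%), against 2.68% of all 12161 genes, and 0 were called lower, against 1.87% of all genes. At an unadjusted p below 0.05, 26 were higher (55.3%, against 10.1% of all genes) and 0 lower, against 8.45% of all genes. DESeq2 called 20 of the 47 higher, against 5.14% of all genes, and 0 lower, against 3.86% of all genes. The fold change was positive for 46 of the 47 genes, against 52.7% of all genes, and the median log2 fold change was 0.67, against 0.02 over all genes. The values ran from -0.06 for Rpa2 to 1.97 for Tk1. Every Hhex KO library lay above every Cre control library for 19 of the 47 genes (40.4%), against 9.37% of all genes, and the reverse held for 0 genes, against 9.98%. Among the classes of the 47 genes, those of the nucleotide supply and the G1/S regulators had the largest median log2 fold changes, 1.33 over 5 genes and 1.61 over 4 genes. The clamp, clamp loader and lagging strand genes had the smallest, with a median of 0.33 over 8 genes and 0 called.

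**Figure D1:**
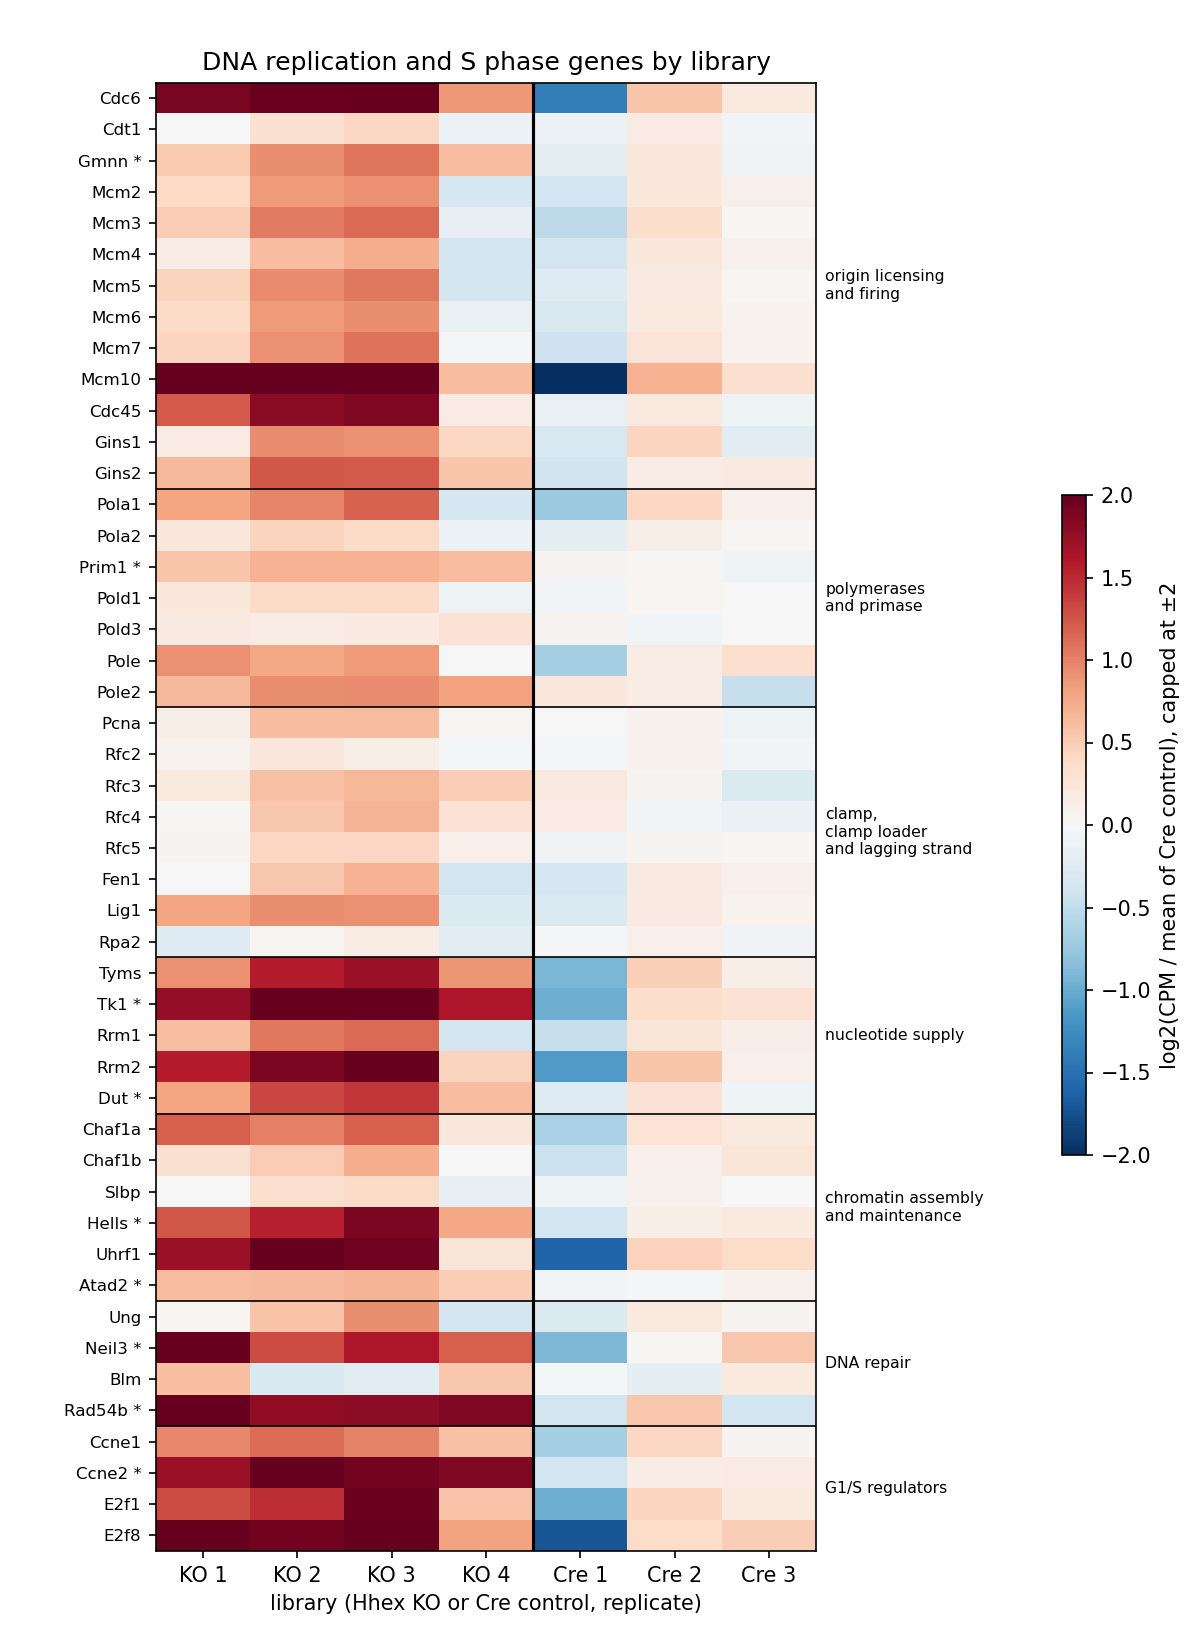
Levels of the 47 genes (rows, in 7 classes by role) in each library (columns; KO is Hhex KO and Cre is Cre control, with the replicate number), as the log2 ratio of CPM to the mean of the 3 Cre control libraries, capped at ±2. Red is higher and blue lower than that mean, and an asterisk marks the 9 genes called at an adjusted p below 0.05. Hhex KO replicates 1 to 3 are red in nearly every row, while replicate 4 is paler and blue for genes such as Mcm2 and Rrm1.

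The 9 called genes spread over 6 of the 7 classes. Ccne2 (ENSMUSG00000028212.16, chromosome 4, 11191351 to 11204779), which encodes cyclin E2, the partner of CDK2 at the start of S phase, had the smallest p of the 47. Its level was 8.42, 11.1, 9.54 and 9.21 CPM in Hhex KO, against 1.95, 2.82 and 2.86 CPM in Cre control. The groups did not overlap, and the 4 Hhex KO values lay close together. The log2 fold change was 1.91 ± 0.21 (adjusted p = 0.00209), and the gene was called with any 1 of the 7 libraries left out. Ints8 on the opposite strand overlaps 17.4% of its exonic length.

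Tk1 (ENSMUSG00000025574.13, chromosome 11, 117815526 to 117826092), the salvage enzyme thymidine kinase, rose most, at 16.3, 20.05, 24.6 and 14.8 CPM in Hhex KO, against 2.47, 6.16 and 5.89 CPM in Cre control. The lowest Hhex KO library was above the highest Cre control library by more than 2-fold. Its log2 fold change was 1.97 ± 0.33 (adjusted p = 0.0128), and of the 7 fits with 1 library left out the call was lost in 1, without Cre control replicate 3 (0.0572). Rad54b (ENSMUSG00000078773.11, chromosome 4, 11558922 to 11615805), a DNA translocase of homologous recombination, was low throughout, at 4.34, 3.32, 3.36 and 3.54 CPM in Hhex KO, against 0.749, 1.41 and 0.757 CPM in Cre control. These levels rest on 67, 58, 57 and 40 reads in Hhex KO, against 10, 16 and 14 reads in Cre control. The groups stood well apart, with a log2 fold change of 1.92 ± 0.31 at an adjusted p of 0.0123. The same-strand gene Fsbp shares 35.8% of the exonic length of Rad54b, so reads of these 2 genes cannot be told apart there. Without Cre control replicates 1 or 3 its adjusted p was 0.0767 and 0.0838.

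Hells (ENSMUSG00000025001.11, chromosome 19, 38930915 to 38971051), a chromatin remodeller needed for DNA methylation, was at 32.9, 41.02, 51.2 and 23.6 CPM in Hhex KO, against 10.7, 15.05 and 15.9 CPM in Cre control. Hhex KO replicate 3 was highest and Hhex KO replicate 4 lowest of its group, and all 4 stood above the controls. The log2 fold change was 1.42 ± 0.27 (adjusted p = 0.0227). Atad2 (ENSMUSG00000022360.8, chromosome 15, 58094044 to 58135082), a bromodomain ATPase of replicating chromatin, was at 79.98, 80.9, 82.6 and 72.4 CPM in Hhex KO, against 49.3, 50.3 and 54.4 CPM in Cre control. Its change was small and even, with a log2 fold change of 0.62 ± 0.10 at an adjusted p of 0.0128. Prim1 (ENSMUSG00000025395.14, chromosome 10, 128015168 to 128030037), the catalytic subunit of primase, was at 26.2, 28.8, 28.98 and 27.6 CPM in Hhex KO, against 18.5, 18.1 and 16.8 CPM in Cre control. Its libraries lay close together, with SDs of 1.303 CPM in Hhex KO (n = 4) and 0.894 CPM in Cre control (n = 3), and its log2 fold change was 0.65 ± 0.11 (adjusted p = 0.0157). Each of Hells, Atad2 and Prim1 lost its call when any 1 Cre control library was left out, at adjusted p values of 0.0559 to 0.108.

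Dut (ENSMUSG00000027203.15, chromosome 2, 125247190 to 125258608), which encodes dUTPase and keeps uracil out of DNA, was at 44.3, 64.3, 69.3 and 39.1 CPM in Hhex KO, against 21.4, 31.1 and 24.2 CPM in Cre control. Its log2 fold change was 1.09 ± 0.23 (adjusted p = 0.0344). Gmnn (ENSMUSG00000006715.11, chromosome 13, 24751845 to 24761923), which encodes geminin, was at 18.4, 24.4, 27.04 and 19.7 CPM in Hhex KO, against 11.3, 15.05 and 12.2 CPM in Cre control. Its log2 fold change was 0.80 ± 0.18 (adjusted p = 0.0425). In both genes the groups did not overlap, and Hhex KO replicates 2 and 3 were the highest libraries. Neil3 (ENSMUSG00000039396.11, chromosome 8, 53586867 to 53639065), a DNA glycosylase that unhooks crosslinks at stalled forks, was at 9.71, 5.56, 6.89 and 5.14 CPM in Hhex KO, against 1.199, 2.29 and 3.24 CPM in Cre control, and here Hhex KO replicate 1 was highest. Its log2 fold change was 1.59 ± 0.37 (adjusted p = 0.0465), the closest of the 9 to the threshold. Dut and Gmnn lost their calls without Hhex KO replicates 2 or 3 or any Cre control library, and Neil3 lost it without any library except Hhex KO replicate 4.

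**Figure D2:**
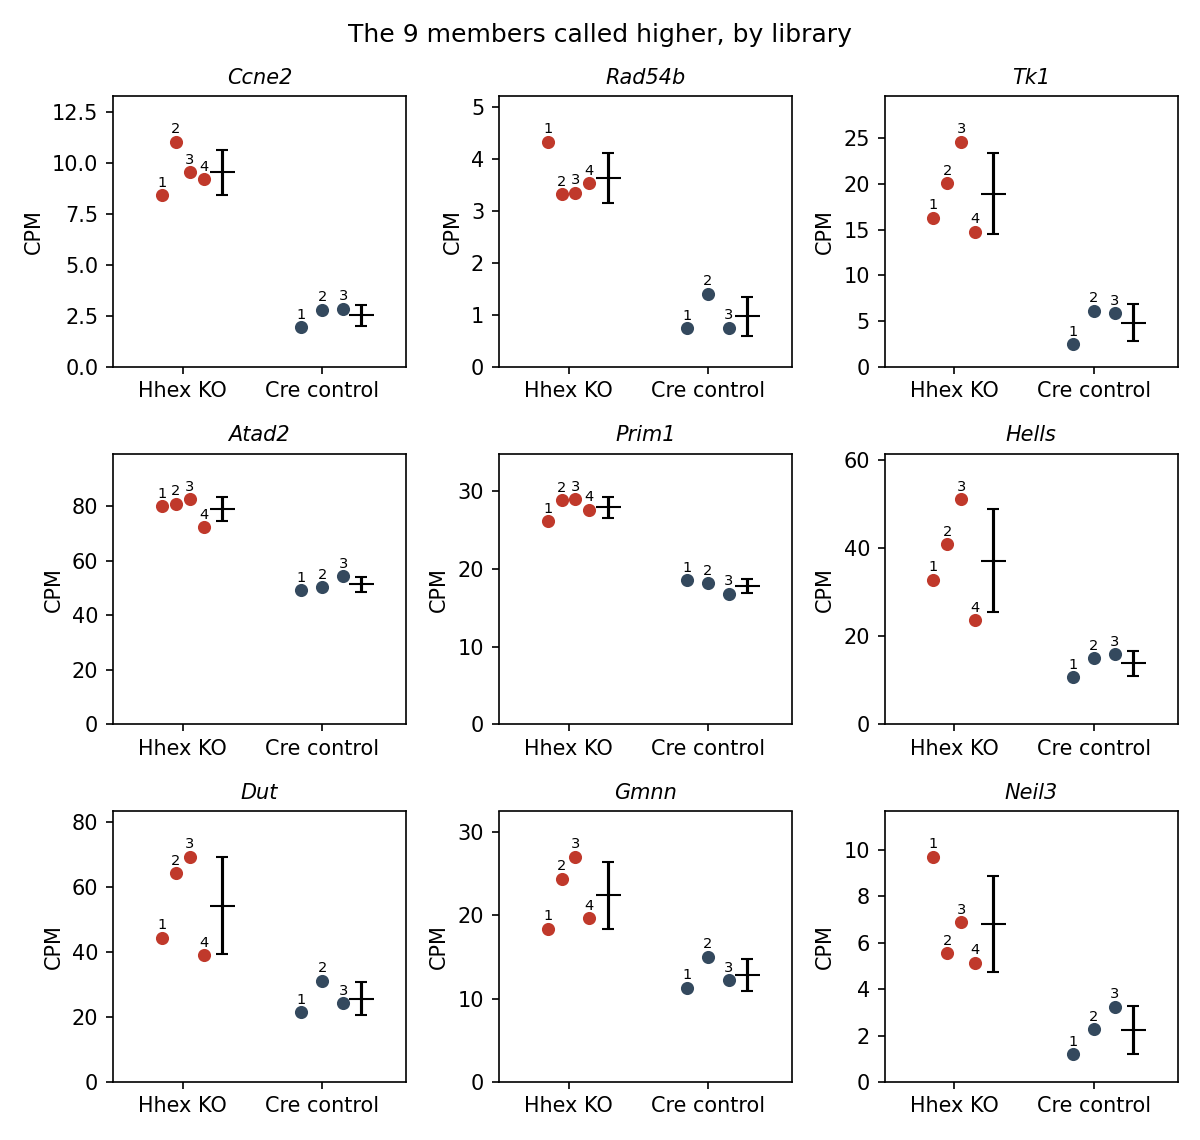
CPM of the 9 called genes, 1 panel each, with Hhex KO in red on the left and Cre control in dark grey on the right; points are libraries numbered by replicate, and the bar to their right is the mean with its SD (n = 4 and n = 3). No panel has overlapping groups, and the scatter within Hhex KO is narrow for Prim1 and Atad2 and wide for Hells and Dut.

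Among the 13 genes of origin licensing and firing, Gmnn was called and the other 12 were not, with a median log2 fold change of 0.66 over the 13. Cdt1, the loader that geminin binds, had the largest p, at 56.99, 71.1, 76.3 and 53.1 CPM in Hhex KO, against 52.8, 64.4 and 55.4 CPM in Cre control and a log2 fold change of 0.16 ± 0.15 at an adjusted p of 0.659. Its groups overlapped, whereas those of geminin, its inhibitor, did not; the difference between the fold changes was not tested. The helicase subunits were abundant and did not pass the test. MCM2-7 had log2 fold changes of 0.34 to 0.71 with a median of 0.59, and 0 of 6 were called. Of the 6, 1 (Mcm7) had an unadjusted p below 0.05, where 10.1% of all genes were higher. DESeq2 also called 0 of the 6. With sample quality weights in limma-voom 5 of the 6 were called, all except Mcm4, where 12.7% of all genes were called higher, and with the level of nuclear RNA as a covariate 4 were called (Mcm3, Mcm5, Mcm6 and Mcm7), where 9.11% of all genes were. Mcm5 was called without Hhex KO replicate 4, with a log2 fold change of 0.83 and an adjusted p of 0.0336, and the other 5 had adjusted p values of 0.0554 to 0.167 there.

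Mcm6 was the most abundant subunit per length, at 64.7 RPKM in Hhex KO and 43.7 RPKM in Cre control (RPKM, CPM per kilobase of exon). Its levels were 265, 368, 390.1 and 184 CPM in Hhex KO, against 163, 234 and 215 CPM in Cre control, a log2 fold change of 0.57 ± 0.26 at an adjusted p of 0.297. Mcm7 was at 102, 143, 161 and 73.2 CPM in Hhex KO, against 56.8, 90.7 and 79.2 CPM in Cre control (log2 fold change 0.66 ± 0.28, adjusted p = 0.251). Mcm3 was at 119, 174, 187 and 75.6 CPM in Hhex KO, against 59.1, 109 and 87.4 CPM in Cre control (log2 fold change 0.71 ± 0.33, adjusted p = 0.301). In these 3 genes, Hhex KO replicates 1 to 3 were above every control and Hhex KO replicate 4 was not. Mcm5 was at 155, 217, 235 and 87.5 CPM in Hhex KO, against 95.02, 128 and 116 CPM in Cre control (log2 fold change 0.62 ± 0.31, adjusted p = 0.345). Here Hhex KO replicate 4 was below all 3 controls. Mcm2 was at 122, 168, 176 and 72.6 CPM in Hhex KO, against 71.6, 108 and 100.1 CPM in Cre control (log2 fold change 0.53 ± 0.30, adjusted p = 0.397). Mcm4 was at 155, 213, 231 and 108 CPM in Hhex KO, against 109, 162 and 148 CPM in Cre control (log2 fold change 0.34 ± 0.26, adjusted p = 0.566). Across the 6 subunits, Hhex KO replicate 4 exceeded all controls in 0 genes, against 36.8% of all genes. Replicates 1 to 3 did so together in 5, all except Mcm4, against 14.1% of all genes.

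**Figure D3:**
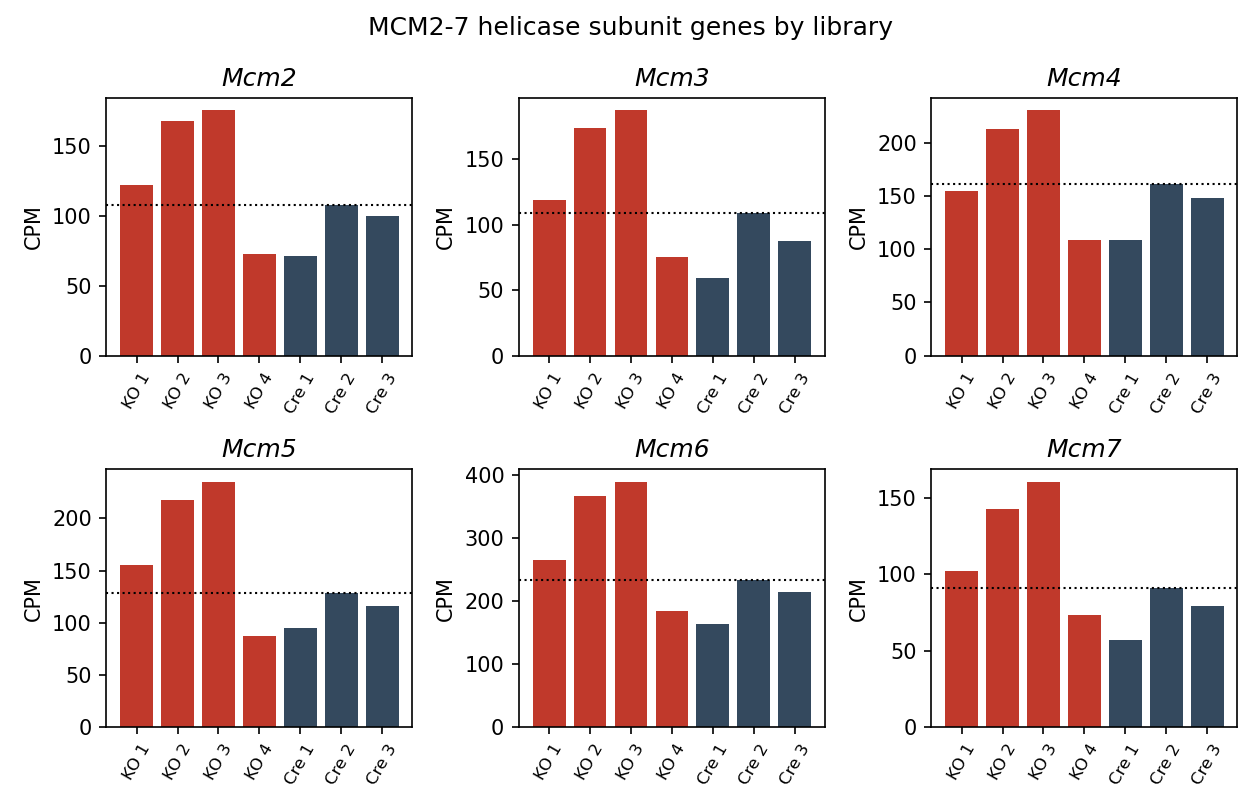
CPM of the 6 MCM2-7 helicase subunit genes in each library, with Hhex KO in red left of Cre control in dark grey; the dotted line is the highest Cre control library. In every panel Hhex KO replicates 2 and 3 stand above the line and Hhex KO replicate 4 stays below it.

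Apart from Cdt1 and geminin, 5 further genes of this class load or fire the ring. Cdc6, the loading ATPase, was at 13.9, 14.6, 18.97 and 6.73 CPM in Hhex KO, against 1.42, 5.46 and 4.21 CPM in Cre control (log2 fold change 1.88 ± 0.47, adjusted p = 0.0666), and its groups did not overlap. Mcm10, which helps activate the helicase, was at 13.5, 13.6, 13.1 and 4.87 CPM in Hhex KO, against 0.450, 5.103 and 3.94 CPM in Cre control (log2 fold change 1.84 ± 0.66, adjusted p = 0.177). Cre control replicate 1 held 6 reads of Mcm10 and stood far below the other controls. Cdc45, a helicase cofactor, was at 16.3, 24.2, 25.5 and 7.79 CPM in Hhex KO, against 6.29, 8.01 and 6.59 CPM in Cre control (log2 fold change 1.41 ± 0.38, adjusted p = 0.0783), with Hhex KO replicate 4 among the controls. The GINS subunits had log2 fold changes of 0.66 ± 0.28 for Gins1 (adjusted p = 0.261) and 0.95 ± 0.25 for Gins2 (adjusted p = 0.0720), and only Gins2 had groups that did not overlap. The opposite-strand gene Gse1 overlaps 67.3% of the exonic length of Gins2, and the strand setting of the counting is not given in the sources used.

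Of the 7 polymerase and primase genes, Prim1 was called and the other 6 were not, with a median log2 fold change of 0.65. All 7 had Hhex KO replicates 1 to 3 above every control, against 14.1% of all genes. Pola2, a polymerase alpha subunit, had the largest p of the class, at 44.6, 51.9, 49.4 and 35.2 CPM in Hhex KO, against 33.7, 41.4 and 38.96 CPM in Cre control (log2 fold change 0.25 ± 0.15, adjusted p = 0.440). The catalytic subunit gene Pola1 had a log2 fold change of 0.76 ± 0.38 at an adjusted p of 0.337. For polymerase epsilon, Pole2 was at 8.61, 10.4, 10.6 and 9.56 CPM in Hhex KO, against 6.37, 6.07 and 3.999 CPM in Cre control, with no overlap between groups and a log2 fold change of 0.85 ± 0.21 at an adjusted p of 0.0560, and the catalytic Pole had 0.67 ± 0.29 (adjusted p = 0.255). Polymerase delta genes had log2 fold changes of 0.23 ± 0.14 for Pold1 (adjusted p = 0.418) and 0.20 ± 0.10 for Pold3 (adjusted p = 0.329). Pold3 was the only 1 of the 47 with Hhex KO replicate 4 as its highest library, which held for 20.6% of all genes. It was at 55.3, 54.4, 55.3 and 60.05 CPM in Hhex KO, against 50.7, 47.2 and 49.3 CPM in Cre control.

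The 8 genes of the clamp, its loader and the lagging strand gave 0 calls by edgeR. Of the 8, 2 were higher at an unadjusted p below 0.05, against 10.1% of all genes. Rfc3, a small subunit of the clamp loader, had the smallest p, at 14.83, 19.5, 20.6 and 18.2 CPM in Hhex KO, against 14.76, 13.6 and 10.6 CPM in Cre control (log2 fold change 0.50 ± 0.17, adjusted p = 0.157), and its groups only just stood apart. The 4 small RFC subunits measured, Rfc2 to Rfc5, had log2 fold changes of 0.10 to 0.50, and the groups did not overlap for Rfc3 and Rfc5. Rpa2, a subunit of the single-strand binding protein RPA, was the only 1 of the 47 with a negative value, at 64.2, 77.96, 85.2 and 65.6 CPM in Hhex KO, against 74.3, 82.4 and 72.7 CPM in Cre control (log2 fold change -0.06 ± 0.13, adjusted p = 0.880). Pcna, the clamp, was the most abundant of the 47 per length, at 80.2 RPKM in Hhex KO and 61.7 RPKM in Cre control. It was at 161, 227, 230.4 and 152 CPM in Hhex KO, against 149, 157 and 139 CPM in Cre control, where only Hhex KO replicates 2 and 3 stood well above the controls (log2 fold change 0.38 ± 0.17, adjusted p = 0.297). The DNA ligase gene Lig1 was at 75.2, 82.4, 81.7 and 36.05 CPM in Hhex KO, against 35.5, 49.01 and 45.9 CPM in Cre control (log2 fold change 0.67 ± 0.28, adjusted p = 0.249). The flap nuclease gene Fen1 had 0.28 ± 0.26 (adjusted p = 0.658), and the antisense gene Gm10143 overlaps 78.8% of its exonic length. Rfc2, Rfc4 and Rfc5 had log2 fold changes of 0.10 ± 0.11, 0.40 ± 0.18 and 0.26 ± 0.13.

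The 5 nucleotide supply genes had a median log2 fold change of 1.33. All 5 had Hhex KO replicates 1 to 3 above every control, against 14.1% of all genes, and Tk1 and Dut were called. Tyms, which makes thymidylate, was at 16.3, 25.5, 28.7 and 16.03 CPM in Hhex KO, against 4.57, 11.97 and 9.403 CPM in Cre control, with no overlap (log2 fold change 1.33 ± 0.35, adjusted p = 0.0729). Ribonucleotide reductase, which makes the deoxyribonucleotides, gave unequal values for its subunits. The small subunit gene Rrm2 was at 68.1, 84.95, 93.1 and 31.4 CPM in Hhex KO, against 10.4, 33.7 and 24.7 CPM in Cre control (log2 fold change 1.601 ± 0.46, adjusted p = 0.102). The large subunit gene Rrm1 had the largest p of the class, at 126, 174, 183 and 64.7 CPM in Hhex KO, against 60.3, 98.3 and 90.9 CPM in Cre control (log2 fold change 0.72 ± 0.34, adjusted p = 0.321). In both, Hhex KO replicate 4 lay within the range of the controls. The difference between the fold changes of Rrm2 and Rrm1 was not tested.

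Of the 6 genes of chromatin assembly and maintenance, Hells and Atad2 were called and the other 4 were not. Uhrf1, which brings the maintenance DNA methyltransferase to new DNA, had a large but uneven difference, at 47.99, 59.6, 56.2 and 17.3 CPM in Hhex KO, against 4.796, 19.97 and 18.8 CPM in Cre control (log2 fold change 1.64 ± 0.55, adjusted p = 0.150). Cre control replicate 1 was the lowest library and Hhex KO replicate 4 lay just below the other controls. The CAF-1 histone chaperone subunits had log2 fold changes of 0.96 ± 0.29 for Chaf1a (adjusted p = 0.115) and 0.41 ± 0.22 for Chaf1b (adjusted p = 0.377). Ubxn6 on the opposite strand overlaps 52.5% of the exonic length of Chaf1a. Slbp, the binding protein of histone mRNA, had the largest p of the class, at 113, 141, 147 and 101 CPM in Hhex KO, against 107, 121 and 112 CPM in Cre control (log2 fold change 0.15 ± 0.15, adjusted p = 0.697).

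Of the 4 repair genes, Rad54b and Neil3 were called, and Blm and Ung were not. Blm, the helicase mutated in Bloom syndrome, was at 29.01, 15.4, 16.6 and 27.8 CPM in Hhex KO, against 18.9, 16.6 and 21.8 CPM in Cre control (log2 fold change 0.21 ± 0.25, adjusted p = 0.751). Its high libraries were Hhex KO replicates 1 and 4, whereas Hhex KO replicate 3 was highest for 31 of the 47 genes (20.9% of all genes). Ung, which removes uracil from DNA, was at 11.2, 16.3, 20.8 and 8.502 CPM in Hhex KO, against 8.92, 12.5 and 11.4 CPM in Cre control (log2 fold change 0.38 ± 0.30, adjusted p = 0.570), with overlapping groups.

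All 4 G1/S regulators had groups that did not overlap, with Hhex KO higher, against 9.37% of all genes. Ccne2 was called, and 2.68% of all genes were called higher. Ccne1, which encodes cyclin E1, was at 15.2, 16.9, 15.6 and 11.7 CPM in Hhex KO, against 4.95, 10.4 and 8.16 CPM in Cre control (log2 fold change 0.93 ± 0.25, adjusted p = 0.0805). The transcription activator gene E2f1 had the largest p of the class, at 18.98, 21.4, 30.04 and 11.4 CPM in Hhex KO, against 3.897, 10.4 and 8.81 CPM in Cre control (log2 fold change 1.41 ± 0.40, adjusted p = 0.0913). E2f8, an E2F repressor that is itself switched on in S phase, was at 18.7, 15.8, 16.9 and 7.26 CPM in Hhex KO, against 1.27, 5.37 and 5.84 CPM in Cre control (log2 fold change 1.81 ± 0.51, adjusted p = 0.0911). In these 3 genes Cre control replicate 1 was the lowest library and Hhex KO replicate 4 the lowest of its group.

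Hhex KO replicate 4 stood apart from the other Hhex KO libraries for these genes. Its library number is 95, and the numbers of the other 6 libraries run from 20 to 28; the sources used do not say whether it was prepared apart. The summed level of the 47 genes was 2587, 3293, 3488 and 1912 CPM in Hhex KO, against 1641, 2188 and 1999 CPM in Cre control. By this sum, replicate 4 lay within the control range. By the median over the 47 genes of the log2 ratio to the Cre control mean, replicate 4 lay above every control. That median was 0.597, 0.924, 0.952 and 0.250 in Hhex KO, against -0.342, 0.181 and 0.0757 in Cre control. Hhex KO replicates 1 to 3 were all above every control for 37 of the 47 genes (78.7%), against 14.1% of all genes. Replicate 4 was above every control for 21 genes (44.7%), against 36.8% of all genes. In 18 genes (38.3%) replicates 1 to 3 were above every control and replicate 4 was not, against 4.70% of all genes. Put another way, replicate 4 shared the position in 51.4% of the 37 genes, and in 66.6% of all genes with replicates 1 to 3 above every control. Hhex KO replicate 3 was the highest library for 31 of the 47 genes, against 20.9% of all genes. Cre control replicate 1 was the lowest for 32, against 13.8% of all genes.

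Without Hhex KO replicate 4, 19 of the 47 genes were called higher, against 4.35% of all genes, and they included all 9 called with every library. The 10 more were Cdc6, Mcm5, Cdc45, Gins2, Lig1, Rrm1, Rrm2, Chaf1a, E2f1 and E2f8. Cdc45 then had a log2 fold change of 1.66 at an adjusted p of 0.00445 and Lig1 0.87 (adjusted p = 0.0125). The count also depended on the control libraries. Without Cre control replicate 1, 2 of the 47 were called (0.723% of all genes were higher there), without replicate 2, 3 were called (1.21%), and without replicate 3, 1 was called (0.766%). Ccne2 was the gene called in each of these.

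Other properties also differed among the libraries, and their part in the results was not tested. Malat1, an abundant nuclear RNA, was at 918, 155, 138 and 650 CPM in Hhex KO, against 619, 243 and 382 CPM in Cre control. In Hhex KO the libraries with the most Malat1, replicates 1 and 4, had the lowest sums of the 47 genes, and in Cre control the library with the most Malat1, replicate 1, had the lowest sum. With the mean log2 CPM of Malat1 and Neat1 as a covariate, 24 of the 47 genes were called higher, against 9.11% of all genes. Malat1, Neat1 and 6 immediate-early genes that respond to cell handling (Fos, Jun, Junb, Egr1, Dusp1 and Ier2) together summed to 1316 to 3836 CPM in Hhex KO and 5770 to 8062 CPM in Cre control, with 0 of 8 called and 6 lower at an unadjusted p below 0.05. The 8 T cell markers, most of whose reads came from Trbc2, summed to 217 to 301 CPM in Hhex KO and 153 to 182 CPM in Cre control, and 1 of 5 tested, Trbc2, was called higher. The CD3 chain genes were read in both groups although the sort took CD3- cells. Cd3d was at 30.6 to 57.2 CPM in Hhex KO and 16.5 to 30.3 CPM in Cre control, with a log2 fold change of 0.97 that did not pass the test (adjusted p = 0.0890). Cd3e and Cd3g had log2 fold changes of 0.87 and 0.72 and were not called either (adjusted p = 0.145 and 0.160). Cd8a was at 0 to 0.458 CPM in Hhex KO and 0 to 0.225 CPM in Cre control. The 8 B and plasma cell markers summed to 241 to 428 CPM in Hhex KO and 213 to 262 CPM in Cre control, mostly from Ighm, and 1 of 4 tested, Cd79b, was called higher. Of these, Cd79a had 7.45, 0.917, 0.236 and 0 CPM in Hhex KO, against 1.199, 0.176 and 0.162 CPM in Cre control. The 6 neutrophil markers summed to 10.5 to 298 CPM in Hhex KO and 13.7 to 35.4 CPM in Cre control, with 0 called, and Hhex KO replicate 2 held the highest sum. The 6 myeloid markers summed to 154 to 398 CPM in Hhex KO and 244 to 333 CPM in Cre control, with 0 called. The 4 markers of haematopoietic progenitors summed to 31.4 to 67.5 CPM in Hhex KO and 90.6 to 165 CPM in Cre control, mostly from Kit. Kit was the 1 that was tested and was called lower. Cd34, Gata1 and Gata2 were at 0 to 2.38 CPM over all libraries. With Hhex KO replicate 2 and Cre control replicate 2, the libraries highest in neutrophil markers in their groups, left out, 3 of the 47 were called higher, against 1.07% of all genes.

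Genes that were low in control cells had the larger fold changes. Across the 47 genes, Spearman's rho between the mean control level per kilobase of exon and the log2 fold change was -0.71, against -0.18 across all 12161 genes. This is a description across genes of the same 7 libraries, and the control level is also the denominator of the fold change. The 24 genes at or above 3.60 RPKM in Cre control had a median log2 fold change of 0.45 with 3 called, and the 23 below it had a median of 1.33 with 6 called. Exonic length and log2 fold change had a rho of 0.04. Rrm2 and Uhrf1 stood high for their level, at 8.28 and 3.41 RPKM in Cre control, and neither was called. The small changes of Atad2 and Prim1 passed the test, and the larger fold changes of Mcm10 and Uhrf1 did not, in step with standard errors of 0.10 and 0.11 for Atad2 and Prim1 and 0.66 and 0.55 for Mcm10 and Uhrf1.

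**Figure D4:**
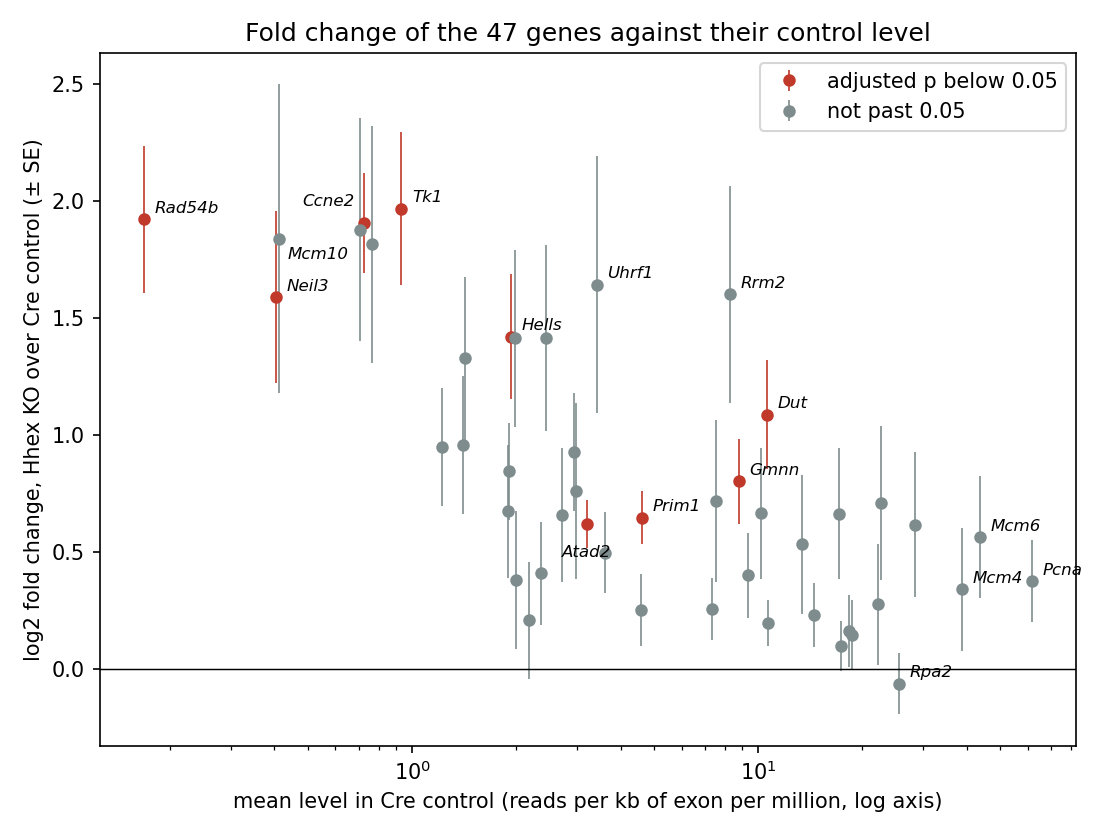
Log2 fold change of each of the 47 genes, Hhex KO over Cre control, with its standard error, against its mean level in Cre control in RPKM (log axis); red points were called at an adjusted p below 0.05 and grey points were not. The largest changes lie on the left, among genes below 1 RPKM such as Tk1, Ccne2 and Rad54b, and the most abundant genes, Pcna and Mcm6, have changes below 0.6.

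A wider list of the same machinery was counted in the same way. Of 65 further genes of replication, nucleotide supply and fork protection, 64 were tested and 1 was called higher (1.56%, against 2.68% of all genes) and 0 lower. At an unadjusted p below 0.05, 31 were higher (48.4%, against 10.1% of all genes) and 2 lower, against 8.45% of all genes. DESeq2 called 14 of them higher, against 5.14% of all genes. Their fold change was positive for 51, and the median log2 fold change was 0.30, against 0.67 for the 47 and 0.02 for all genes; the difference between the medians was not tested, and the largest value on the list lay above that of Tk1. Pclaf, a PCNA-binding protein of replication forks, was the called gene and had that largest value, at 49.2, 65.2, 74.2 and 26.04 CPM in Hhex KO, against 7.49, 17.95 and 15.1 CPM in Cre control (log2 fold change 1.99 ± 0.41, adjusted p = 0.0341). Its groups did not overlap, but the call was lost with no filter on low counts (adjusted p = 0.173) and when any 1 library other than Hhex KO replicate 4 was left out (0.0605 to 0.124). Pole3, a histone-fold subunit of polymerase epsilon, had the largest p of the list, at 24.1, 34.7, 36.6 and 29.8 CPM in Hhex KO, against 31.2, 34.1 and 29.02 CPM in Cre control, with a log2 fold change of -0.0047 ± 0.16 at an adjusted p of 0.993.

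Of 25 further regulators of the step from G1 to S phase, 6 were called higher (24%, against 2.68% of all genes). Called lower were 0, against 1.87% of all genes, and the median log2 fold change was 0.36. Cdk6, the kinase partner of D-type cyclins, was at 77.5, 57.3, 71.98 and 59.2 CPM in Hhex KO, against 23.9, 31.9 and 35.4 CPM in Cre control (log2 fold change 1.13 ± 0.17, adjusted p = 0.00988). Cdk2, the partner of the E cyclins, was at 28.4, 25.8, 29.8 and 28.3 CPM in Hhex KO, against 15.4, 15.6 and 18.9 CPM in Cre control (log2 fold change 0.76 ± 0.13, adjusted p = 0.0145). The E2F repressor gene E2f7 was at 7.71, 6.19, 5.65 and 3.72 CPM in Hhex KO, against 1.05, 1.76 and 2.16 CPM in Cre control (log2 fold change 1.80 ± 0.34, adjusted p = 0.0219). These 3 were called. The other 3 called genes were E2f3 (log2 fold change 0.74 ± 0.16), the E2F partner gene Tfdp1 (log2 fold change 0.94 ± 0.20) and Fbxo5 (log2 fold change 1.02 ± 0.17). Fbxo5 encodes an inhibitor of the anaphase-promoting complex. In all 6 the groups did not overlap. Of the 25, 10 had groups that did not overlap with Hhex KO higher (40%, against 9.37% of all genes). With Hhex KO lower there were 3, against 9.98% of all genes. Each of the 6 lost its call in at least 1 leave-one-out fit, and with Cre control replicate 1 left out all 6 lost it, at 0.0518 to 0.174.

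The proliferation markers Mki67 and Top2a had higher mean levels in Hhex KO, with wide spread, and were not called by edgeR. Mki67, the Ki-67 gene, was at 223, 50.8, 32.5 and 55.1 CPM in Hhex KO, against 7.79, 10.8 and 26.3 CPM in Cre control (log2 fold change 2.58 ± 0.77, adjusted p = 0.109). Hhex KO replicate 1 was far above the rest, although it was not the library with the most replication gene RNA. Without it the log2 fold change of Mki67 was 1.599 (adjusted p = 0.109), and DESeq2 with every library called Mki67 higher (adjusted p = 0.0264). Top2a, the topoisomerase that untangles copied chromosomes, was at 226, 204, 226 and 67.8 CPM in Hhex KO, against 25.03, 80.4 and 83.2 CPM in Cre control (log2 fold change 1.53 ± 0.52, adjusted p = 0.157). Here Hhex KO replicates 1 to 3 were alike and replicate 4 lay within the range of the controls. Nor did replicate 4 exceed every control for any of the helicase subunits. With sample quality weights Top2a passed the test (adjusted p = 0.0486). Of 24 genes of G2 and mitosis, 9 were called higher (37.5%, against 2.68% of all genes) and 0 lower, among them Cdk1, Ccnb1, Birc5 and Foxm1. Their median log2 fold change was 1.73, against 0.67 for the 47 replication genes. The difference between these medians was not tested.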

How the data were processed

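Per the labels' protocols, RNA was extracted on columns from the sorted cells, made into libraries with a directional kit and read as single 75 bp ends. STAR, featureCounts and build mm10 are named without versions in the submitters' processing notes; the annotation release and the strand setting of the counting were not found in the sources used. The authors deposited raw gene counts that were not normalized, in 1 column per library, and 0 columns were left unused. Each library was treated as 1 replicate. Within a group, chi-square per degree of freedom between libraries was 11.0 to 78.3, more spread than counting alone gives. It cannot show whether libraries came from separate animals. Values were 15.4 to 17.4 between Cre control libraries, 11.0 between Hhex KO replicates 2 and 3 and 28.0 between replicates 1 and 4. The remaining Hhex KO pairs had 69.9 to 78.3.

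Counts were tested with edgeR 4.0.16 in R 4.3.3: filterByExpr (minimum count 10, minimum total 15), TMM scaling, robust quasi-likelihood F test of Hhex KO (n = 4) against Cre control (n = 3) with no covariate, and Benjamini-Hochberg adjustment over 12161 genes. A standard error is the log2 fold change divided by the square root of F. RPKM is CPM per kilobase of exons. Coordinates, exon lengths and overlaps are from GENCODE M21 on GRCm38 (mm10), 1-based. Of the gene identifiers, 99.8% matched the name table without their version. An exact permutation test of 4 against 3 libraries cannot go below p = 0.0286. The test was checked on simulated counts.

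Members and lists were chosen with earlier results of these data known. Named with values in every library are all called members, the smallest and largest p of each class, the called and the largest-p gene of the further replication list, Hhex, Mki67 and Top2a; further genes were named after their values were seen. Alternatives were leaving out each library, a replicate block, limma-voom (limma 3.58.1) as it is or with quality weights per sample, DESeq2 1.42.0, scaling by RLE or upper quartiles, a stricter filter (10 CPM in 3 libraries) and none; a nuclear-RNA covariate and leaving out both libraries highest in neutrophil markers were added after the data were seen.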

Additional observations from a re-analysis of the deposited data

Results flagged for a closer look

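Dixon's test was run on the 4 Hhex KO values of 58 genes, at its 95% critical value, and 5 genes had a library far from the other 3. Chance flags about 1 group in 20, and the genes are not independent. Hhex KO replicate 4 was the outlying library in 4 of them. It was low for Mcm10 (4.87 CPM, against 13.1 to 13.6 CPM in Hhex KO replicates 1 to 3), Lig1 (36.0 CPM, against 75.2 to 82.4 CPM) and Top2a (67.8 CPM, against 204 to 226 CPM), and high for Pold3 (60.05 CPM, against 54.4 to 55.3 CPM). For Mki67 Hhex KO replicate 1 was high, at 223 CPM against 32.5 to 55.1 CPM. Its marker sums for other cell types are given beside the results, and their part in these values was not tested.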

How the results depend on the processing

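No fit called any of the 47 genes lower. RLE and upper-quartile scaling, no filter, the stricter filter (41 of the 47 tested) and limma-voom kept the number called higher within 1.5 times of 9. It was 20 with DESeq2 (5.14% of all genes were higher there), 37 with sample quality weights (12.7%), 24 with the nuclear-RNA covariate (9.11%), 3 without both libraries highest in neutrophil markers (1.07%), and 1 to 19 with 1 library left out (0.723% to 4.35%), lowest without Cre control replicate 3 and highest without Hhex KO replicate 4. The number of genes whose groups did not overlap, 19, was 19 to 38 with 1 library left out, where it held for 10.2% to 14.3% of all genes. Leaving a library out cannot lower this number except through rescaling, so the range does not test it. Of the further replication genes, 5 were called higher with no filter (1.66% of all genes), 14 with DESeq2 (5.14%) and 30 with sample quality weights (12.7%). With the covariate 22 were called (9.11%), without both neutrophil-high libraries 0 (1.07%), and with 1 library left out 0 to 10 (0.723% to 4.35%). Log2 fold changes near 0 turned sign: with sample quality weights Blm was at -0.18, Rpa2 at 0.045 and Pole3 at 0.14, and Pole3 was also at 0.013 with upper-quartile scaling, at 0.0019 with the stricter filter, at 0.0034 without both neutrophil-high libraries and at -0.087 to 0.097 with 1 library left out. The cause was not tested.

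With a replicate block on the 6 libraries numbered 1 to 3, 27 of the 47 genes and 10 of the further replication genes were called higher, against 4.11% of all genes. In these libraries, the same as those without Hhex KO replicate 4, the groups did not overlap for 38 of the 47 genes, against 14.3% of all genes. That count does not use the block. All 6 MCM2-7 subunits and Top2a (adjusted p = 0.0334) passed under the block, while Neil3 lost its call at an adjusted p of 0.0600; the same 6 libraries without the block gave 19 of the 47. The correlations of deviations between same-numbered libraries were 0.33, 0.48 and -0.03. Hhex KO replicates 1 and 2 each correlated best with the Cre control library of the same number, and replicate 3 with Cre control replicate 2. So few libraries cannot decide whether the samples were paired, and the labels give them only a number in common. The depth of the lowest genes, such as Rad54b, limits their precision.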
